A study of Mus musculus with 4 samples.

Results

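The megalin-cubilin endocytosis genes are Lrp2, Cubn, Amn, Dab2, Folr1, Clcn5 and Lrpap1, and their RNA was measured here in embryonic mouse kidneys of stage E14.5. They were chosen by function, as the apical endocytic receptors of the proximal tubule and their partners, and every probe set that the platform table pairs with 1 of these genes alone was taken. That gave 7 of 18194 genes and 19 of the 45101 probe sets on the Affymetrix Mouse430_2 array. RNA came from 4 pools of whole excised kidneys, each hybridised to 1 array. The 2 Wnt4 mutant arrays held pools of 12 kidneys of Wnt4 null embryos (allele Wnt4tm1Amc, strain given as 129), and the 2 wild-type arrays held pools of 2 kidneys (strain given as CD-1). Genotype, stated strain and pool size therefore cannot be told apart. The protocol text, shared by all arrays, speaks of CD-1 matings, sex was given as unknown, and no label ties the pools to litters. The p-values thus cover only the spread between pools, which may be technical. According to the design text, the renal vesicle and the structures that form from it are missing without Wnt4, and the comparison was meant to find genes expressed there.

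Megalin, the product of Lrp2, is a very large receptor of the LDL receptor family, and cubilin, the product of Cubn, is a large peripheral membrane protein that needs amnionless (Amn) to reach the apical surface and be anchored there. In the proximal tubule they recover filtered proteins and protein-bound vitamins. Dab2 is the adaptor that couples megalin's cytoplasmic tail to clathrin, the folate receptor Folr1 is held in the same apical membrane by a lipid anchor, ClC-5 (Clcn5) is a chloride-proton exchanger of the endosomes, and Lrpap1 encodes RAP, a chaperone of the endoplasmic reticulum that keeps receptors of the LDL receptor family from binding ligand too early.

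To show whether 3 genes that were all lower in the mutant share sequence near their starts, the 250 bases before their annotated starts are shown, from RefSeq (build GRCm38.p6), 5′ to 3′ along the gene. The Lrp2 window is chr2:69586030-69586279 (minus strand), the Cubn window chr2:13491877-13492126 (minus strand) and the Amn window chr12:111270846-111271095 (plus strand), and capitals mark matches to CAAAGNNCA, a motif of the type bound by HNF4.
Lrp2: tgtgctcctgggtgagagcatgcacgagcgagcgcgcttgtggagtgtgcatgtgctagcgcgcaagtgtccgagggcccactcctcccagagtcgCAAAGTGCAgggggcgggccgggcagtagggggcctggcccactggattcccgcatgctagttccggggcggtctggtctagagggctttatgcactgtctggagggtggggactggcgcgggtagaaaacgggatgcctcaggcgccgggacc
Cubn: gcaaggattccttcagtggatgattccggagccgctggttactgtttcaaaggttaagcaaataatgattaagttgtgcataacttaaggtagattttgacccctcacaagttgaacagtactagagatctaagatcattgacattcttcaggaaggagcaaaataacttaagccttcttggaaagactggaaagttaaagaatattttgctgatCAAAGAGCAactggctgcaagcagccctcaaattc
Amn: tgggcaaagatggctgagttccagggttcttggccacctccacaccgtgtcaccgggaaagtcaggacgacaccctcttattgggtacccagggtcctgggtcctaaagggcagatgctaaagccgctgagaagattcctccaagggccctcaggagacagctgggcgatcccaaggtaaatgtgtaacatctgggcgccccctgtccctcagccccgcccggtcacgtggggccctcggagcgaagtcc
Both strands were searched for CAAAGNNCA, for GTTAAT (an HNF1 half-site) and for TATAAA, and no matches overlapped. CAAAGNNCA occurred once each before Lrp2 and Cubn, beginning 154 and 35 bases before the start, and not before Amn. It occurred in 5.49% of the 32851 windows of this length in the table. The other motifs, found in 6.43% and 12.4% of windows, were in none of the 3. Base composition differed: G and C made up 66.4% of the Lrp2 window and 61.2% of the Amn window but 39.6% of the Cubn window, where the median of all windows was 52.4% and 11% of windows had less than Cubn. Windows were matched for 6 of the 7 members, and Folr1 was not searched. Among the other members searched, Lrpap1 had 1 match to CAAAGNNCA, 1 of the 2 Dab2 windows had GTTAAT, and 1 of the 2 Clcn5 windows had TATAAA.

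Differences were tested with limma on log2(signal + 16), over the 27022 probe sets in the upper 60% by mean level, and Benjamini-Hochberg adjustment ran over all of them, with calls made at an adjusted p of 0.05. The signal is the authors' intensity per probe set on a linear scale, differences are mutant minus wild-type, folds are on the log2(signal + 16) scale, and errors of log2 differences are SE. With 2 arrays a group, the smallest two-sided p that an exact permutation test allows is 0.33, so only this fit across all probe sets was used. The arrays were scaled alike before deposit, with trimmed means of 500.0 on each. Wnt4 itself was lower at both of its probe sets, at 406 and 272 in mutant against 1885 and 1770 in wild-type kidneys at the brighter one (5.28-fold, adjusted p = 0.000196). In whole organs, fewer cells of a type and less RNA per cell cannot be told apart.

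Of the 19 member probe sets, 18 passed the filter and 1, for Cubn, did not. The filter used the mean over all 4 arrays, and the lowest level kept was a signal of 94.2. At Cubn 1452270_s_at and Lrp2 1427133_s_at both mutant signals lay below that level, so these sets passed only through their wild-type signals. At Lrp2 1452320_at 1 mutant signal lay below it and the mutant mean was 85.8, so this set too passed only through its wild-type signals. At Amn 1417920_at 1 mutant signal lay below it. Of those 18, 7 were lower in the mutant and 0 higher, against 5.39% lower and 5.41% higher of all tested probe sets. At an unadjusted p under 0.05, 10 were lower and 0 higher, against 13.4% lower and 12.3% higher of all tested probe sets. The groups did not overlap at 13 of the 18, each time with the mutant lower, against 28% of all tested probe sets that did so in that direction and 54.1% in either. Taking the brightest tested probe set of each gene, 5 of 7 members (Lrp2, Cubn, Amn, Folr1 and Lrpap1) were lower, against 5.82% of the 13432 genes tested. The median log2 difference was -2.07 over the 7 members and 0.00027 over all genes tested. By size, 4 members were called and at least 2-fold lower, against 2.03% of all genes tested (1.88% of probe sets). The smallest fold of these 4 was 4.21, and the other 3 members differed by 1.14-fold to 1.27-fold. Whether the sizes differ between members was not tested.

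**Figure D1:**
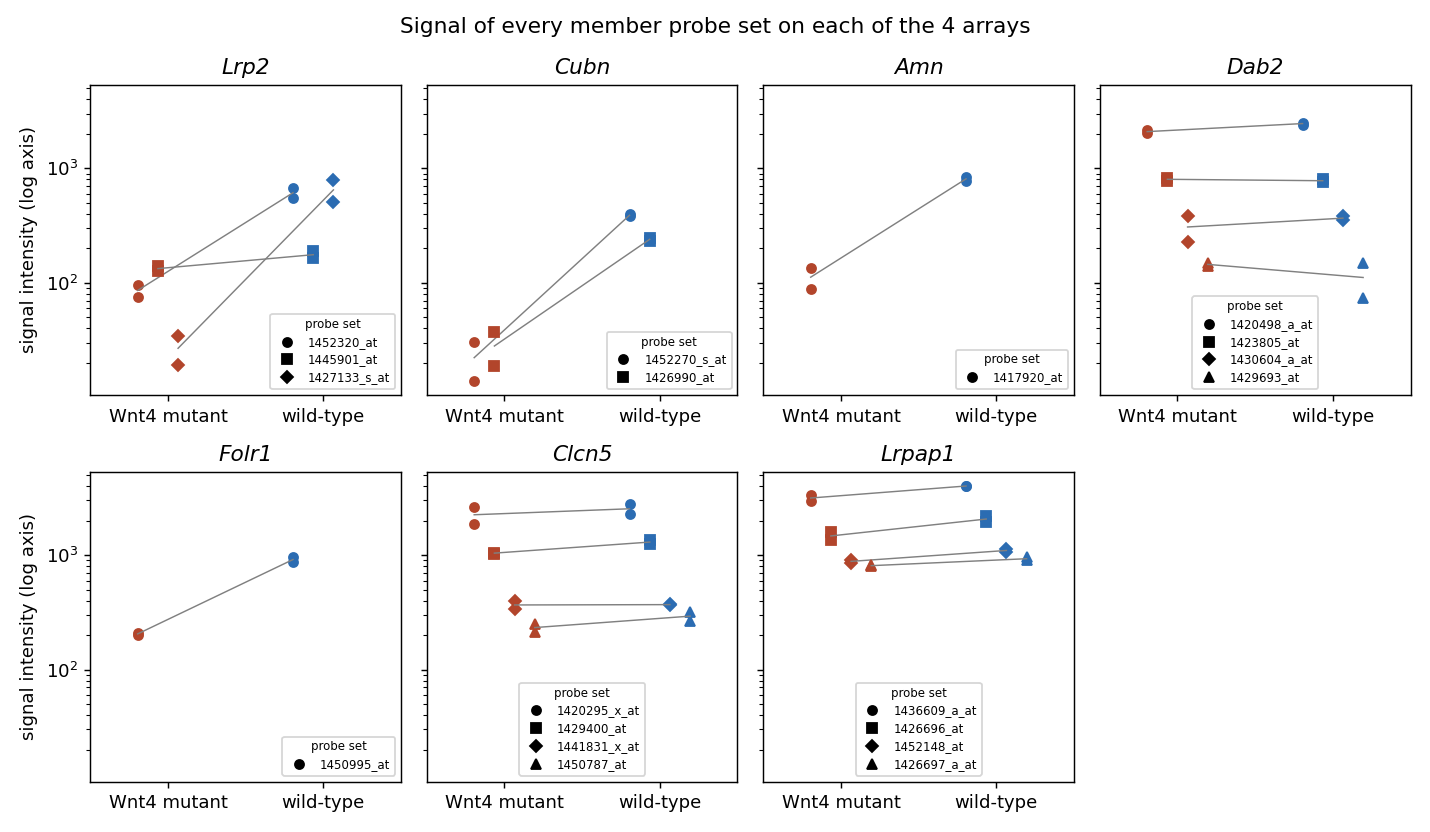
Signal intensity (log axis) of every member probe set on each of the 4 arrays, with Wnt4 mutant arrays in red on the left and wild-type arrays in blue on the right of each panel. Each symbol is a probe set, each point an array, and lines join group means. Cubn, Amn, Folr1 and the Lrp2 sets other than 1445901_at are far lower in the mutant, while the lines of Dab2, Clcn5 and Lrpap1 are nearly flat.

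The receptor gene Lrp2 was much lower in mutant kidneys. At its brightest probe set, 1452320_at, the signal was 75.0 and 96.7 in mutant kidneys, against 549 and 676 in wild-type kidneys. Both mutant arrays lay far below both wild-type arrays, a log2 difference of -2.63 ± 0.22 and a 6.17-fold lower level (95% interval 4.32 to 8.83, limma adjusted p = 0.000354). At 1427133_s_at it was 19.0 and 34.6 in mutant against 510 and 787 in wild-type kidneys, 15.4-fold lower (9.26 to 25.7, adjusted p = 0.000283). The suffix _s_at marks probes that can match more than 1 transcript. The third probe set, 1445901_at, read 139 and 127 in mutant and 189 and 163 in wild-type kidneys. There the groups did not overlap either, but the difference of 1.29-fold did not pass (interval 0.860 to 1.93, adjusted p = 0.428). So 1445901_at differed in size from the other Lrp2 sets, without a test of that difference. The size at 1427133_s_at, dim in the mutant, depends on the constant added before the log: the log2 difference was -2.95 with 64 and -4.57 with 1, in place of -3.95 with 16. The position of each in the transcript was not analysed here.

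Among the brightest probe sets of the members, that of Cubn had the lowest log2 difference. This probe set, 1452270_s_at, read 30.5 and 13.9 in mutant kidneys, against 399 and 380 in wild-type kidneys, 10.9-fold lower (6.38 to 18.5, adjusted p = 0.000620). On the mutant arrays these signals stood at percentiles 20.4 and 9.03 of all probe sets other than controls, against 68.6 and 68.0 on the wild-type arrays. Cubn was thus among the dim probe sets in the mutant, and the size of its fold depends on the constant added: with 64 in place of 16 the log2 difference was -2.40, with an adjusted p of 0.000329, in place of -3.44. The other Cubn probe set, 1426990_at, gave 37.5 and 18.7 in mutant against 247 and 233 in wild-type kidneys. It was below the filter on low levels. When all probe sets were tested its log2 difference of -2.57 had an adjusted p of 0.0175.

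Amn, cubilin's membrane anchor, had a single probe set and was lower in the mutant as well. The signal was 88.4 and 136 in mutant kidneys, against 779 and 840 in wild-type kidneys. This was a log2 difference of -2.71 ± 0.22, or 6.56-fold lower (4.61 to 9.32, adjusted p = 0.000288), and the wild-type arrays differed from each other far less than from either mutant array. By log2 difference, Cubn ranked 16, Amn 34 and Lrp2 41 from the lowest of the 13432 genes. These ranks are among genes past the filter on mean level, which Cubn and Lrp2 passed only through their wild-type signals. Folr1, the folate receptor, ranked 69. Its signal was 211 and 199 in mutant and 866 and 964 in wild-type kidneys, 4.21-fold lower (3.30 to 5.37, adjusted p = 0.000187). At the brightest probe sets Folr1 had the smallest fold of these 4, and its mutant arrays stood at percentiles 58.4 and 55.3 of the probe sets.

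**Figure D2:**
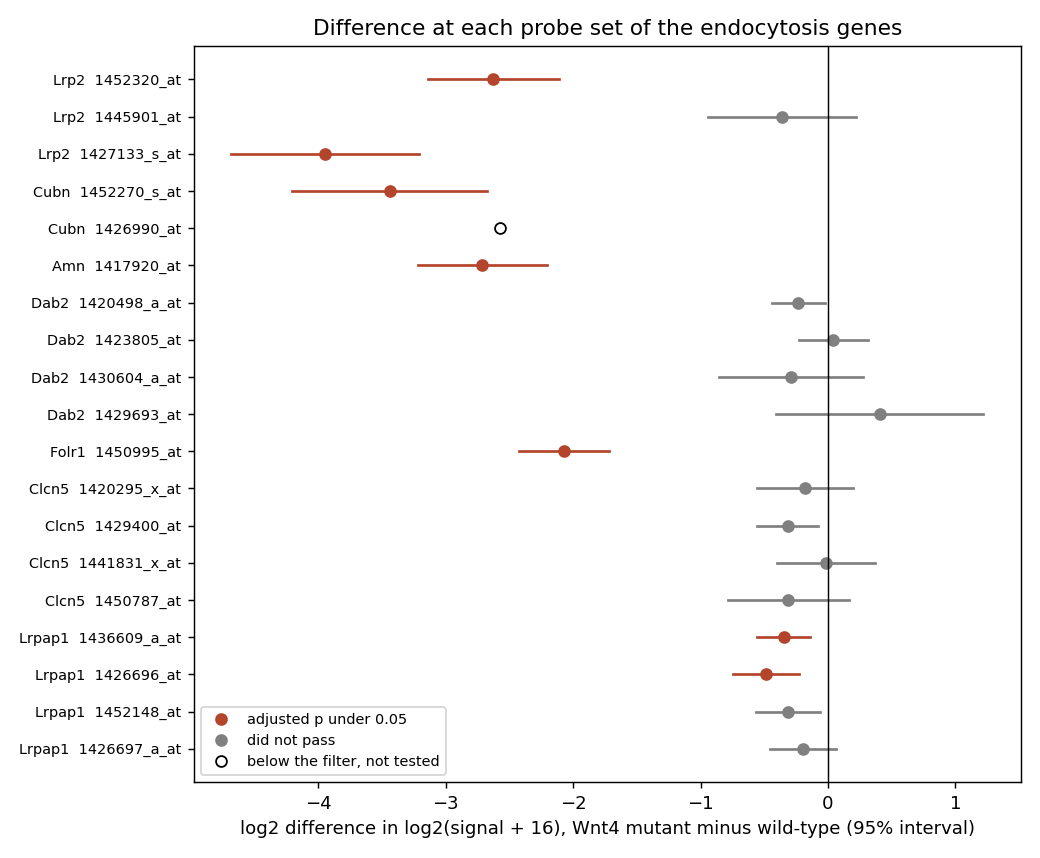
Log2 difference in log2(signal + 16), Wnt4 mutant minus wild-type, at each member probe set, with 95% intervals from limma. Red points passed an adjusted p of 0.05, grey points did not, and the open point is the Cubn probe set below the filter. The passing points of Lrp2, Cubn, Amn and Folr1 lie from -3.95 to -2.07, and those of Lrpap1 at -0.35 and -0.49.

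Dab2, the adaptor, had 4 probe sets and none passed in either direction (limma, and 1 lower at an unadjusted p under 0.05). The brightest, 1420498_a_at, read 2022 and 2166 in mutant kidneys, against 2508 and 2414 in wild-type kidneys. The groups did not overlap, and the 1.17-fold lower level had an interval of 1.02 to 1.36 and an adjusted p of 0.149. At 1423805_at the groups overlapped, with 829 and 775 in mutant and 759 and 800 in wild-type kidneys (adjusted p = 0.876). The 95% interval of wild-type over mutant ran from 0.806 to 1.17 there, which leaves out a fold of the size measured for Lrp2 or Cubn. The dimmer sets 1430604_a_at (228 and 387 in mutant, 381 and 354 in wild-type) and 1429693_at (148 and 142 in mutant, 73.1 and 150 in wild-type) were noisier and pointed in opposite directions. Their adjusted p-values were 0.528 and 0.536.

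Clcn5, the endosomal exchanger, likewise passed at none of its 4 probe sets (1 lower and 0 higher at an unadjusted p under 0.05). The brightest, 1420295_x_at, gave 2619 and 1884 in mutant kidneys and 2814 and 2264 in wild-type kidneys, which overlap. It was 1.14-fold lower (0.875 to 1.47, adjusted p = 0.548), and without mutant replicate 2 the log2 difference was 0.053. The suffix _x_at marks probes that may bind unrelated transcripts. At 1429400_at, which has no such mark, all mutant signals (1053 and 1028) lay below the wild-type ones (1256 and 1343). That 1.24-fold difference had an interval of 1.06 to 1.47 and an adjusted p of 0.0944. The remaining sets read 215 and 251 in mutant against 265 and 321 in wild-type kidneys (1450787_at, adjusted p = 0.404), and 340 and 394 against 374 and 365 (1441831_x_at, adjusted p = 0.974).

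Lrpap1, the chaperone, was slightly lower in the mutant. At its brightest probe set, 1436609_a_at, the signal was 3333 and 2972 in mutant kidneys, against 4032 and 3995 in wild-type kidneys. This is 1.27-fold lower (1.10 to 1.47, adjusted p = 0.0439), a small gap beside that of the receptor it serves. At 1426696_at it was 1584 and 1356 in mutant and 2174 and 1957 in wild-type kidneys, 1.40-fold lower (1.17 to 1.68, adjusted p = 0.0294). The sets 1452148_at (910 and 853 in mutant, 1071 and 1125 in wild-type) and 1426697_a_at (818 and 799 in mutant, 958 and 902 in wild-type) did not pass, with adjusted p-values of 0.116 and 0.325. The groups did not overlap at any of the 4 sets, with the mutant lower, as was so at 28% of all tested probe sets. The call at the brightest set did not hold without mutant replicate 1 (adjusted p = 0.0878), without mutant replicate 2 (0.306), with arrays centred on their medians (0.252), with no filter (0.0834) or without the intensity trend (0.216). At 1426696_at it was lost without mutant replicate 2 (0.192), with centred arrays (0.0962), with no filter (0.0595) and without the trend (0.160). Without Lrpap1, 4 of the 7 members were lower.

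The other genes of the endocytic route were mostly not called in either direction, which also held for genes at large. Of all genes tested, 5.82% were lower and 6.7% higher, the shares to set beside each list below. Of 22 tested genes for adaptors and the clathrin coat, 2 were lower and 0 higher (3 and 3 at an unadjusted p under 0.05), with a median log2 difference of -0.08. The lower ones were scaffold proteins of the apical membrane. Pdzk1 read 191 and 186 in mutant against 2042 and 2178 in wild-type kidneys (10.4-fold lower, adjusted p = 1.64e-05), and Slc9a3r1, which encodes NHERF1, 1704 and 1564 against 2422 and 2351 (1.46-fold lower, adjusted p = 0.00934). The clathrin heavy chain gene Cltc averaged 6893 ± 179 in mutant and 7419 ± 267 in wild-type kidneys (SD, n = 2 each), with a limma adjusted p of 0.458. Myo6, the motor that carries endocytic vesicles inward, averaged 668 ± 128 in mutant and 962 ± 1.99 in wild-type kidneys and did not pass (limma adjusted p = 0.0586). Cltc and Myo6 were named after their values were seen.

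Of 22 endosomal traffic genes, 2 were lower and 1 higher, with a median of -0.06. Rab11a, a small GTPase of recycling endosomes, read 3611 and 3207 in mutant against 5081 and 4857 in wild-type kidneys (1.46-fold lower, adjusted p = 0.00796). The recycling regulator Ehd3 read 380 and 416 against 699 and 744 (1.78-fold lower, adjusted p = 0.00814). Pik3c3, a lipid kinase of early endosomes, was 1.59-fold higher (adjusted p = 0.0366). A further probe set each for Rab11a and Ehd3 did not pass. Of 19 genes for acidification and chloride exchange, 1 was lower and 0 higher (4 and 1 at an unadjusted p under 0.05), with a median of -0.18. That gene was Ostm1, the partner subunit of the lysosomal exchanger ClC-7, at 380 and 338 in mutant against 544 and 561 in wild-type kidneys (1.52-fold lower, adjusted p = 0.0411).

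None of the relatives of the members that were tested was lower. Of 11 tested LDL receptor family genes and paralogues, 0 were lower and 1 was higher, against 5.82% and 6.7% of all genes, and at an unadjusted p under 0.05 the counts were 0 lower and 3 higher. Lrp1, a broadly expressed endocytic receptor of that family, read 1327 and 1597 in mutant kidneys, against 958 and 907 in wild-type kidneys. It was 1.55-fold higher (adjusted p = 0.0144), and both mutant arrays were above both wild-type arrays. The folate receptor paralogue Folr2 read 129 and 171 in mutant against 183 and 163 in wild-type kidneys (adjusted p = 0.700), and the Dab2 paralogue Dab1 did not pass either (adjusted p = 0.810). The difference in response between a member and its paralogue was not tested.

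Genes that handle the ligands went both ways, with 2 of 12 lower, 2 higher and a median of 0.12. Tcn2, which carries cobalamin in blood, read 1652 and 1762 in mutant against 2643 and 2645 in wild-type kidneys (1.54-fold lower, adjusted p = 0.00398), and the reduced folate carrier gene Slc19a1 was 1.36-fold lower (adjusted p = 0.0464). Stra6, the retinol uptake receptor, read 908 and 871 against 453 and 384 (2.09-fold higher, adjusted p = 0.00276), and the methionine synthase gene Mtr was 1.46-fold higher (adjusted p = 0.0480). Of 16 lysosomal genes, the sialidase gene Neu1 (1.84-fold) and the protease gene Ctsh (1.55-fold) were lower and Hexa (1.40-fold) and Scarb2 (1.39-fold) higher, with a median of 0.03. Their adjusted p-values ran from 0.0148 to 0.0228. Further probe sets of Scarb2 (log2 difference -0.16, adjusted p = 0.595, opposite in direction), Ctsh (-0.21, 0.405) and Mtr (0.49, 0.277) did not pass. As means over their probe sets, Scarb2 (adjusted p = 0.414), Ctsh (0.0596) and Mtr (0.0769) were not called.

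Among the genes named in these pathway lists, those whose call was lost without mutant replicate 1 were Pik3c3, Ostm1, Slc19a1, Mtr, Ctsh, Hexa and Scarb2 (adjusted p = 0.0570 to 0.269). Without mutant replicate 2 these were lost too, as were Slc9a3r1, Rab11a, Lrp1 and Neu1 (adjusted p = 0.0531 to 0.198 over the 11), without wild-type replicate 1 Pik3c3, Ostm1 and Slc19a1 (0.0536 to 0.0666), and without wild-type replicate 2 Ostm1 and Mtr (0.0719 and 0.0810). Without the intensity trend Pdzk1, Stra6 and Neu1 still passed and the other 12 did not.

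**Figure D3:**
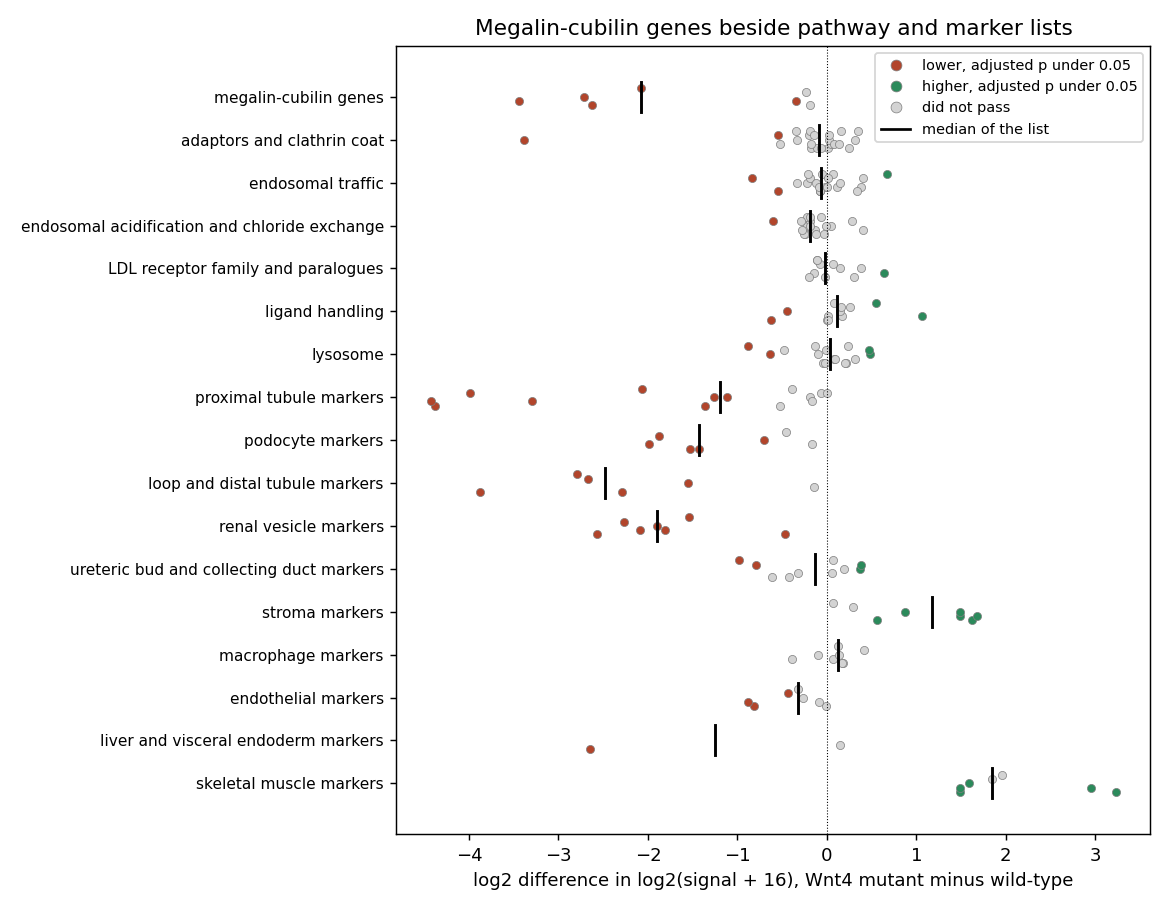
Log2 difference, Wnt4 mutant minus wild-type, of each tested gene at its brightest probe set, for the megalin-cubilin genes and for pathway and marker lists. Red is lower and green higher at an adjusted p under 0.05, grey did not pass, and black bars are list medians. The median of the megalin-cubilin genes is -2.07, those of the endocytic pathway lists lie between -0.18 and 0.12, and that of proximal tubule markers is -1.19.

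Markers of the proximal tubule were lower on the same arrays as the receptors. Of 14 tested, 8 were lower and 0 higher (also 8 and 0 at an unadjusted p under 0.05). Their summed signal, over the 14 on the array, was 3009 and 3318 in mutant kidneys, against 9163 and 9597 in wild-type kidneys. Slc34a1, the phosphate carrier of the proximal brush border, read 68.5 and 31.8 in mutant and 1336 and 1282 in wild-type kidneys (20.9-fold lower, adjusted p = 8.46e-05). Keg1 (15.9-fold, adjusted p = 1.76e-05), the fatty acid transport gene Slc27a2 (9.81-fold) and Cdh6 (2.40-fold), the cadherin of early proximal tubule, were lower as well. On the mutant arrays Slc34a1 stood at percentiles 33.6 and 18.9 and Slc27a2 at 14.1 and 14.0. The size of folds at such dim probe sets depends on the constant added before the log. Markers that did not pass included the glucose carrier gene Slc5a2, at 248 and 235 in mutant and 262 and 245 in wild-type kidneys.

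Other structures moved on the same arrays. Lower in the mutant were 7 of 7 renal vesicle markers, 5 of 6 loop and distal tubule markers and 5 of 7 podocyte markers, with medians of -1.90, -2.48 and -1.43. Higher were 6 of 8 stroma markers and 5 of 7 skeletal muscle markers, with medians of 1.18 and 1.84. Some called markers, such as Bmp2 (mean 57.0 in mutant) and Myog (83.2 in wild-type), passed the filter only through the group where they are high. The summed signal of the 8 stroma markers was 54571 and 54828 in mutant kidneys, against 35886 and 31938 in wild-type kidneys, and that of all 8 muscle markers on the array, 1 of them below the filter, 3764 and 3993 against 1547 and 680. Of 10 ureteric bud and collecting duct markers 2 were lower and 2 higher, and of 7 endothelial markers 3 were lower and 0 higher (4 and 0 at an unadjusted p under 0.05). The part of these shifts in the members' differences was not tested.

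Macrophages and visceral endoderm also express members of this group. Of 8 tested macrophage markers, 0 passed (limma, with 1 lower and 0 higher at an unadjusted p under 0.05), with a median of 0.13. The summed signal of all 9 on the array, 1 of them below the filter, was 4078 and 4286 in mutant against 4122 and 3854 in wild-type kidneys. Of the 8 liver and visceral endoderm markers on the array, 2 passed the filter, and the summed signal of all 8 was 478 and 1134 in mutant against 1521 and 2136 in wild-type kidneys. Afp, the alpha-fetoprotein gene, read 69.7 and 520 in mutant kidneys, against 1127 and 1562 in wild-type kidneys, and was lower (adjusted p = 0.0438, and 0.112 when no filter was applied). The mutant arrays stood far apart from each other for Afp, and both lay below both wild-type arrays. The other tested marker, Apoa2, did not pass, and the 6 below the filter, Alb, Ttr and Apoa1 among them, had signals of 9.51 to 166 in mutant and 8.39 to 133 in wild-type kidneys. Their part in the differences of Cubn, Amn and Lrp2 was not tested.

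Genes with the profile most like that of Lrp2 were sought by the root mean square difference between log2 values centred on each gene's mean over the 4 arrays, which weighs the size as well as the direction of a difference. The closest were the claudin gene Cldn10 (0.037), the brush border peptidase genes Dpp4 (0.059) and Mep1a (0.10), the mucin gene Muc1 (0.10) and, as the only other member, Amn (0.11). Cldn10 is in the list of loop and distal tubule markers used above. Dpp4 averaged 222 ± 51.4 in mutant and 1516 ± 203 in wild-type kidneys (SD, n = 2 each), and all 5 were 6.19-fold to 6.56-fold lower. For Cubn the closest were the zinc carrier gene Slc39a5 (0.053), Pcp4 (0.15), Pdzk1 (0.22), the sodium pump subunit gene Fxyd2 (0.23) and the fucosyltransferase gene Fut9 (0.24). Slc39a5 averaged 62.1 ± 20.1 in mutant and 823 ± 70.8 in wild-type kidneys, and these 5 were 8.51-fold to 12.1-fold lower. With 4 arrays in 2 groups, likeness mostly reflects a similar difference between the groups.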

How the data were processed

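Gene expression was measured on 4 Affymetrix arrays of embryonic mouse kidneys. The deposited values were linear signal intensities, 1 for each probe set on each array. Per the submitters' processing notes GCOS was used; how probes were summarised and scaled is not given in the sources used here, and detection calls were not used. Genes were named through the platform annotation with symbols checked by identifier against a RefSeq table of GRCm38.p6. Of 45101 probe sets, 34958 had a single gene, 932 several, and the others stay unnamed here.

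The 64 control probe sets and the lowest 40% by mean log2(signal + 16) were left out, the lowest mean level kept being a signal of 94.2. limma 3.58.1 in R 4.3.3 (lmFit, eBayes with an intensity trend, two-sided) compared 2 Wnt4 mutant with 2 wild-type arrays, and p-values were adjusted over 27022 probe sets. The code was tested on simulated data. There it called 70 of 100 log2 changes of size 1 and 95 of 100 of size 2, with 27 false calls. The number of arrays limits the precision. The members, gene lists and tests were chosen with earlier results of these data known. Named were all members, Wnt4, up to 4 passing genes with the smallest p of each pathway list and of the proximal tubule and liver markers (other marker lists are given as counts), and the 5 genes closest to Lrp2 and to Cubn; other genes were chosen after their values were seen. Alternatives were other normalizations, pseudocounts, filters and variance models, leaving out ambiguous probe sets, gene means, a replicate block and leaving out each array.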

Additional observations from a re-analysis of the deposited data

How the results depend on the processing

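Lrp2, Amn and Folr1 were lower and past the threshold wherever they were tested, and so was Cubn. With the lowest 60% left out, Lrp2 and Cubn fell below the filter, so 4 member probe sets and 3 member genes were lower. The tested Cubn set also fell below it with a pseudocount of 1, without either wild-type array, and was left out with the _s_at sets. Without 1 array in turn and with no filter, an alternative chosen after seeing the data, Cubn's log2 difference ran from -3.76 to -3.12 (adjusted p = 0.0144 to 0.0486). Lrpap1 kept its direction throughout, with log2 differences of -0.33 with arrays centred on medians, -0.35 with no filter, without the trend or with the replicate block, and -0.34 as the mean over its probe sets (adjusted p = 0.0555), none past the threshold. It ran from -0.43 to -0.27 without 1 array. Clcn5 ran from -0.42 to 0.053, and member probe sets numbered 5 to 7 and member genes 4 without 1 array. Small differences changed sign: Clcn5 at 1441831_x_at was 0.0043 with quantile normalization, 0.0031 with centred arrays and -0.11 to 0.088 without 1 array, and Dab2 ran from -0.0073 to 0.088 at 1423805_at, from -0.65 to 0.072 at 1430604_a_at and from -0.042 to 0.85 at 1429693_at.

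Over all probe sets, 858 passed without the intensity trend (433 lower and 425 higher), against 2920 with it. Without 1 array 1572 to 4008 passed (871 to 1903 lower, 701 to 2105 higher), with the lower ends without a mutant array, where the lone mutant array is assumed to vary like the wild-type pair. With the replicate block 2913 passed. Same-numbered arrays did not deviate together across probe sets (r = -0.017). That value cannot show whether the numbers mark a pairing that affects some probe sets. The causes were not tested. Signals near the bottom of the scale, as for Cubn in the mutant, limit the size of a fold.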
